A study of Mus musculus with 48 samples.

Results

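The cytosolic ribosomal protein genes of mouse macrophages were described across 4 Lyn genotypes and 3 culture conditions. They were chosen by name: symbols that start with Rpl or Rps followed by a digit, plus Rpsa, Rplp0, Rplp1 and Rplp2, without pseudogenes marked -ps, the Rps6k kinases, Rps19bp1 and the paralogs Rpl22l1, Rpl7l1 and Rpl39l. Of 148 symbols with the prefix, among the 13617 genes of the deposited variance-stabilised table, 87 remained. They comprised 77 core genes, with 46 for the large and 31 for the small ribosomal subunit, and 10 copies and paralogs (Rpl32l, Rpl35rt, Rpl36al, Rpl37rt, Rpl6l, Rps27l, Rps27rt, Rps3a2, Rps3a3 and Rps4l). Rpl35rt could not be matched to an identifier of the count table and has no value here. The other 86 all passed the filter on low counts, with 13986 genes passing in all.

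The study sequenced polyA RNA of bone marrow-derived macrophages, which are cells grown from marrow for 7 days in medium with the growth factor M-CSF. The mice were of 4 genotypes: LynAKO, LynBKO, LynKO (total) and wild type (WT). Lyn is a Src-family kinase made as the splice isoforms LynA and LynB; the names say which isoform each knockout line lacks. After a night of rest, each culture received for 2 h 2 ng/mL LPS, a ligand of the receptor TLR4, or 20 ng/mL R848 (resiquimod), a ligand of TLR7, or medium alone (NT), all without M-CSF. Each of the 12 groups held 4 libraries from 4 mice, 2 male and 2 female, and the mice were differentiated and treated separately. Strain, age and the construction of the knockout alleles are not stated in the labels.

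Cytosolic ribosomes join one copy of each core protein, with the stalk proteins as an exception, to the ribosomal RNAs, so the cell needs these proteins in matched amounts. Most of their mRNAs start with a C followed by a run of pyrimidines, the terminal oligopyrimidine (TOP) tract, through which mTORC1 and the RNA-binding protein LARP1 set their translation and stability. A change in the protein made from such an mRNA can therefore occur without a change in its level, and mRNA level is what was measured here.

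Promoter sequence was found in the RefSeq table (GRCm38.p6) for 62 of the 87 genes, 57 of them core. Of these 57, 30 (52.6%) had within 15 bases of an annotated start a C followed by at least 6 further C or T, against 19.4% of all 27025 genes with a promoter. A gene was counted if any of its promoters matched. The ETS-factor core CCGGAAG, on either strand of the 300-base window from 250 before to 50 after the start, was found in 24 of the 57 (42.1%), against 9.93% of all genes. The Sp1 box GGGCGG was in 61.4% of the 57 against 38.2%, the YY1 letters AAGATGGC in 8.77% against 3.19%, the E box CACGTG in 10.5% against 8.09%, and TATAAA in 10.5% against 15.7%. The NF-kB consensus searched was in 0 of the 57 and in 0.174% of all. These matches describe the letters only. Of the members named below for a departure from the others, Rpl4, Rpl18 and Rpl19 hold the tract, and the search found none in Rpl24, Rpl27 and Rps13. In Rpl19 the tract lies in the window at 98026884-98026943. The search found none in its window at 98026670-98026729, which spans its GENCODE start at 98026710. The window of Rpl27 ends at 101442264, before its GENCODE start at 101442298, so a tract at that start was not searched. Shown are 60 bases of each, from 40 before the RefSeq start to 20 after it, with the tract in capitals: first 5 promoters that hold it, then those of Rpl24, Rpl27 and Rps13. Their positions are chr4:86857348-86857407 (minus strand) for Rps6, chr9:64173347-64173406 (plus) for Rpl4, chr14:18270967-18271026 (minus) for Rpl15, chr7:141447611-141447670 (plus) for Rplp2, chr11:114668540-114668599 (plus) for Rpl38, chr16:55966235-55966294 (plus) for Rpl24, chr11:101442205-101442264 (plus) for Rpl27 and chr7:116334171-116334230 (minus) for Rps13.
Rps6: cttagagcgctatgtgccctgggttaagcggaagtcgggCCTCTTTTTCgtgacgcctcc
Rpl4: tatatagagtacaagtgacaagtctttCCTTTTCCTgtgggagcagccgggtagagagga
Rpl15: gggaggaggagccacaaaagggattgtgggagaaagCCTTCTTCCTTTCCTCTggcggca
Rplp2: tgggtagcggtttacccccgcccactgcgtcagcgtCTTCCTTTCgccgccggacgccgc
Rpl38: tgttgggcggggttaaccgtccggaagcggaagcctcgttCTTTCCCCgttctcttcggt
Rpl24: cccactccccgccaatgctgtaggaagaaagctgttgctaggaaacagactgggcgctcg
Rpl27: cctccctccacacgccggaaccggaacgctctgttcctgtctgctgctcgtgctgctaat
Rps13: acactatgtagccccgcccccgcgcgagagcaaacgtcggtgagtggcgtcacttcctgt

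The 48 libraries held 14974764 to 23321447 counts each. Macrophage markers were high, with all 8 detected and a sum of 23320 to 44730 CPM (library-scaled counts, TMM), while T cell, B cell and erythroid markers summed to at most 1.59, 0.536 and 0.138 CPM and fibroblast markers to at most 3.24 CPM. The 5 neutrophil markers moved with the ligands, with sums of 8.94 to 13.2 CPM with LPS, 7.53 to 13.3 CPM with R848 and 1.77 to 5.12 CPM with NT in WT, where Ly6g, Mpo and Elane averaged under 1 CPM over all libraries. The 3 dendritic cell markers did so too, with 6.29 to 8.69 CPM with LPS, 4.41 to 9.83 CPM with R848 and 0.292 to 0.892 CPM with NT in WT, with Flt3 and Zbtb46 under 1 CPM. Their part in the ligand comparisons was not tested. Lyn itself, the gene targeted, averaged 118 CPM in LynAKO, 125 CPM in LynBKO, 67.6 CPM in LynKO and 177 CPM in WT without ligand, so reads of the locus remained in the knockouts. The fourth LynAKO mouse stood apart from its group in the ribosomal protein genes, with its NT library 0.30 and its R848 library 0.26 above the group mean on the log2 scale over the core genes. The LynKO R848 library of mouse 4 stood 0.22 above its group. In LynBKO the NT libraries 2 and 3 carried sex labels exchanged against the LPS and R848 libraries of those numbers, and the LynBKO and LynKO NT libraries 4 held transcripts of both sexes.

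Ribosomal protein mRNAs were abundant and unequal. Mean levels of the 77 core genes ran from 95.3 CPM (Rpl38) to 1119 CPM (Rplp0) over the 12 groups. Per kilobase of coding sequence, the scale used to compare genes, the median was 772 CPM. Rpl41, which encodes a very short peptide of the large subunit, was highest at 5194 CPM per kilobase, followed by the stalk protein gene Rplp1 at 1588, Rpl10 at 1455, Rps14 at 1416 and Rpl23 at 1406. Rpl24 was lowest at 234 CPM per kilobase, after Rpl15 at 368, Rpl13a at 389 and Rpl10a at 405. Coding length leaves out the untranslated ends, which weigh most in the shortest genes. Rpl24 is among the 38 members whose exons overlap those of another annotated gene, so its counts may be incomplete.

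The level of each core gene moved little between groups. The highest group mean was a median 1.26 times the lowest over the 77 core genes, from 1.16 for Rpl13a to 1.98 for Rpl24. In 2117 other genes at least as abundant as the lowest core gene, that ratio had a median of 1.76 with quartiles of 1.40 and 2.85. These were chosen by mean level over the same 12 groups. Genes raised by a ligand could thus enter through their ligand groups, which can widen the range of the set. On this TMM scale Rpl24 had both the lowest level per kilobase and the widest range of the core genes.

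The part of the library that these genes took up was smaller with either ligand. They held 3.08% ± 0.244 of all counts in LynAKO, 2.95% ± 0.0804 in LynBKO, 3.01% ± 0.125 in LynKO and 2.99% ± 0.108 in WT macrophages with LPS (SD, n = 4 each). With R848 the shares were 2.97% ± 0.329 in LynAKO, 2.83% ± 0.110 in LynBKO, 3.12% ± 0.331 in LynKO and 2.93% ± 0.229 in WT. Without ligand they were 4.02% ± 0.579, 3.64% ± 0.220, 3.69% ± 0.197 and 3.95% ± 0.162 in the same order of genotypes. LPS and NT libraries did not overlap in any genotype, and R848 and NT libraries overlapped in LynKO alone, where the highest R848 share was 3.61% and the lowest NT share 3.47%. That overlap was 1 library, LynKO R848 4: without it the R848 share was 2.95% ± 0.049 (SD, n = 3), the highest was 3.01%, and the ratio of means to NT was 0.80. Without LynAKO mouse 4 the shares in LynAKO were 2.97% with LPS, 2.81% with R848 and 3.73% with NT, at ratios of 0.797 and 0.755 to NT. Leaving out the NT library 4 gave ratios of 0.802 and 0.770 in LynBKO and 0.830 and 0.860 in LynKO for LPS and R848. In the 12 mice of LynAKO, LynKO and WT, whose libraries are paired by number, the share was lower with LPS in 12 of 12 and lower with R848 in 12 of 12. The ratio of mean shares lay between 0.758 (WT) and 0.815 (LynKO) for LPS over NT, and between 0.740 (LynAKO) and 0.844 (LynKO) for R848 over NT.

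**Figure D1:**
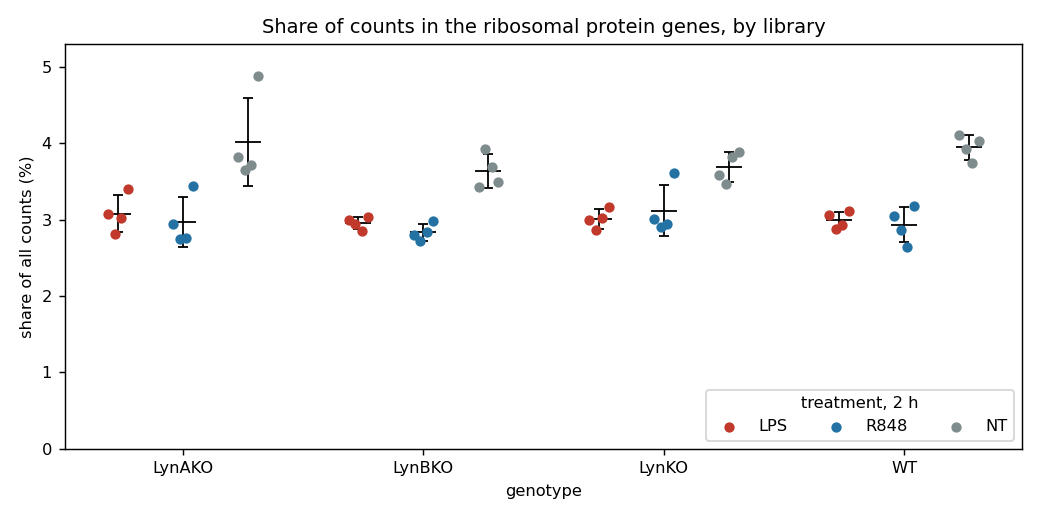
Percent of all counts in the 86 ribosomal protein genes, 1 point per library, by genotype (x axis) and treatment, with the group mean and SD (n = 4). LPS libraries lie at 2.81 to 3.40%, R848 libraries at 2.65 to 3.61% and NT libraries at 3.43 to 4.88%.

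A share moves with everything else in the library. The median of all 13986 genes fell by 0.54 with LPS and by 0.39 with R848 in WT when libraries were scaled to total counts (log2 fold changes). TMM scaling, used for the tests below, put the median of all genes near 0, between -0.05 and 0.02 in every comparison. The median of the ribosomal protein genes with LPS was above 0 on the TMM scale and below 0 on the total-count scale, and on both it lay above the median of all genes. On the TMM scale it lay below that of the 2117 other genes as abundant. With LPS their medians were 0.459 in LynAKO, 0.452 in LynBKO, 0.403 in LynKO and 0.48 in WT. The core medians were 0.117, 0.195, 0.158 and 0.117. With R848 those genes had 0.38, 0.377, 0.327 and 0.408, and the core genes -0.096, -0.00678, 0.0577 and -0.0627. In such bulk samples, less of an mRNA per cell, fewer cells that hold it and more of other mRNAs cannot be told apart.

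With LPS, the ribosomal protein genes differed little from NT on the TMM scale, with most values above 0, and nearly all were lower on the total-count scale. Their median log2 fold change against NT was 0.12 in LynAKO, 0.20 in LynBKO, 0.15 in LynKO and 0.11 in WT, beside -0.04, -0.03, -0.03 and -0.03 for all genes. edgeR's quasi-likelihood test, with Benjamini-Hochberg adjustment over all genes and a threshold of 0.05, called 4 of 86 higher in LynAKO, 66 in LynBKO, 22 in LynKO and 12 in WT, and none lower. The shares of all genes called higher in these comparisons were 30.4%, 33.9%, 31.0% and 31.5%, those called lower were 30.3%, 33.4%, 30.7% and 30.0%, and those called either way 60.7%, 67.3%, 61.7% and 61.6%. The ribosomal protein genes had a share of higher calls above that background in LynBKO and below it in the other 3 genotypes in this fit without a block. Scaled to total counts, 78, 78, 77 and 78 were called lower and 1 higher in each genotype (LynAKO, LynBKO, LynKO, WT), where 56.7%, 59.9%, 56.2% and 56.7% of all genes were called lower. The medians on that scale were -0.37, -0.30, -0.29 and -0.40, against -0.53, -0.53, -0.48 and -0.54 for all genes.

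All 4 LPS calls of LynAKO, all 22 of LynKO and all 12 of WT were also among the 66 of LynBKO. Those 66 are most of the members, so they would hold most of any smaller set. The same overlap over all genes was not counted, so nothing is read from it. A total of 3 genes, Rpl24, Rpl29 and Rpl4, all of the large subunit, were called in every genotype. The Rpl29 call in LynAKO, given below, was lost without LynAKO mouse 1, 2 or 3. The mouse number, entered as a block in the genotypes whose numbers pair the libraries, raised the calls to 38 in LynAKO, 51 in LynKO and 22 in WT, with 33.6%, 33.4% and 32.8% of all genes higher. Refits without a mouse or a single library are given here and below without the share of all genes called in them, so no background stands beside their counts. The call count of the family changed with single mice. It was 51 without LynAKO mouse 4 and 2 without LynAKO mouse 1, 2 or 3, and 39 without LynKO mouse 4 but 4, 11 and 9 without LynKO mouse 1, 2 and 3. In WT it was 5, 4, 3 and 5 without mouse 1, 2, 3 and 4, and in LynBKO it was 27 without replicate 1, 39 without replicate 4 and 40 without its NT library 4 alone. With the block the calls thus lay above the background in LynAKO and LynKO and below it in WT. The median stayed above 0 in each of these fits.

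The spread among core genes was narrow beside that of other genes. In WT with LPS, the quartiles of the core log2 fold changes were 0.07 and 0.16, against 0.06 and 1.18 in the 2117 other genes as abundant. The choice of those genes by their level over all groups can raise their upper quartile. Of the 77 core genes, 76 lay within 0.5 of 0 in every genotype with LPS against NT, and all 77 with R848 against NT, while 44.2% to 52.6% of all genes did so. The gene outside was Rpl24. Large and small subunit genes had near-equal medians (0.11 and 0.12 in WT with LPS), as had genes with and without the pyrimidine tract (0.11 and 0.12) and with and without the ETS core (0.13 and 0.11).

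**Figure D2:**
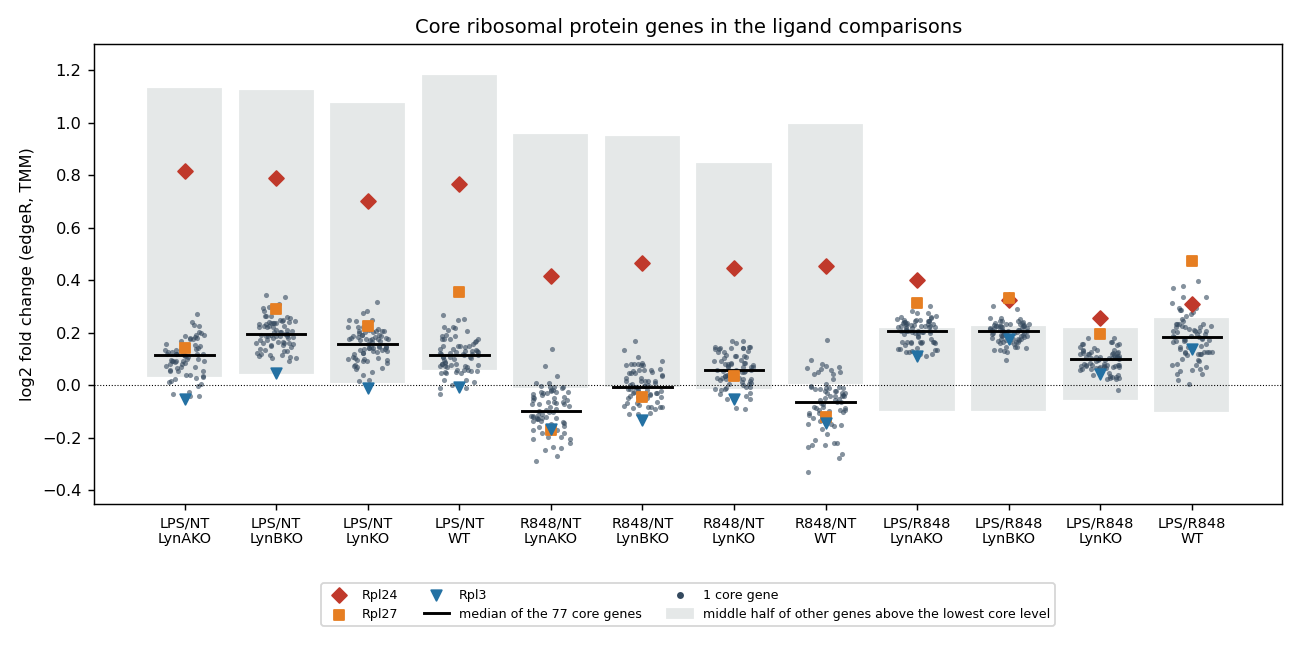
Log2 fold change (edgeR, TMM scale) of each core ribosomal protein gene in the 12 ligand comparisons, 1 point per gene, with the quartiles of the 2117 other genes as abundant. The core genes form a tight band near 0 on this scale, below 0 for LPS and R848 against NT when scaled to total counts, and Rpl24 lies above the band with either ligand.

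R848 left the family close to its level without ligand on the TMM scale and below it on the total-count scale. The median log2 fold change was -0.09 in LynAKO, -0.01 in LynBKO, 0.06 in LynKO and -0.06 in WT (-0.44, -0.36, -0.24 and -0.43 scaled to total counts). edgeR called 1 of 86 higher in LynAKO, 3 in LynBKO, 1 in LynKO and 1 in WT, where 29.0%, 31.3%, 28.4% and 30.0% of all genes were higher. It called 1 lower in LynBKO (Rpl3) and 1 in WT (Rpl18), where 32.2% and 26.7% of all genes were lower, and none in LynAKO and LynKO (26.9% and 27.0%). Either way, 56.0%, 63.5%, 55.3% and 56.7% of all genes were called in LynAKO, LynBKO, LynKO and WT. Scaled to total counts, 80, 79, 60 and 79 were lower and none higher, where 48.4%, 53.7%, 46.4% and 48.6% of all genes were lower. With mice as a block, 2 were higher and 22 lower in LynAKO (32.4% and 31.5% of all genes), 11 higher and none lower in LynKO (30.9% and 30.2%), and 2 higher and 13 lower in WT (31.4% and 28.5%). Without LynAKO mouse 4, 1 was higher and 19 lower in LynAKO, and without LynAKO mouse 3 none was called. In WT, 5 were lower without mouse 1 and 3 without mouse 4, while without mouse 2 or 3 Rpl18 was no longer called. In LynBKO 2 and 1 were called without replicates 2 and 3. On the TMM scale the share called thus lay far under that of all genes in each genotype, and on the total-count scale above it.

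Compared directly, LPS left the family above R848 on the TMM scale. The median log2 difference was 0.21 in LynAKO, 0.21 in LynBKO, 0.10 in LynKO and 0.18 in WT, and all 77 core genes were above 0 in LynAKO, LynBKO and WT and 76 in LynKO. Scaled to total counts these medians were 0.07, 0.06, -0.04 and 0.03. edgeR called 1, 59, 0 and 12 of 86 higher with LPS in LynAKO, LynBKO, LynKO and WT, where 9.70%, 14.2%, 9.73% and 10.9% of all genes were higher, and none lower, where 7.92%, 12.3%, 6.13% and 10.0% were (17.6%, 26.5%, 15.9% and 21.0% either way). With total counts, 0, 2, 0 and 1 were higher. In LynKO 3 had an unadjusted p under 0.05, and DESeq2 also called 0. With mice as a block the calls were 68, 6 and 34 in LynAKO, LynKO and WT (14.6%, 13.0% and 13.3% of all genes higher). Leaving out LynAKO mouse 4 gave 71 calls and leaving out any other LynAKO mouse gave 0. Leaving out LynKO mouse 4 gave 21, leaving out WT mouse 2 or 3 gave 4 and 5, and leaving out LynBKO replicates 1, 2 and 3 gave 14, 6 and 13. Within single mice, the mean log2 level of the core genes was higher with LPS than with R848 in 11 of the 12 paired mice, by a median of 0.19. It was higher with LPS than NT in 11 of 12, by a median of 0.15, with LynAKO mouse 4 the exception at -0.06.

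**Figure D3:**
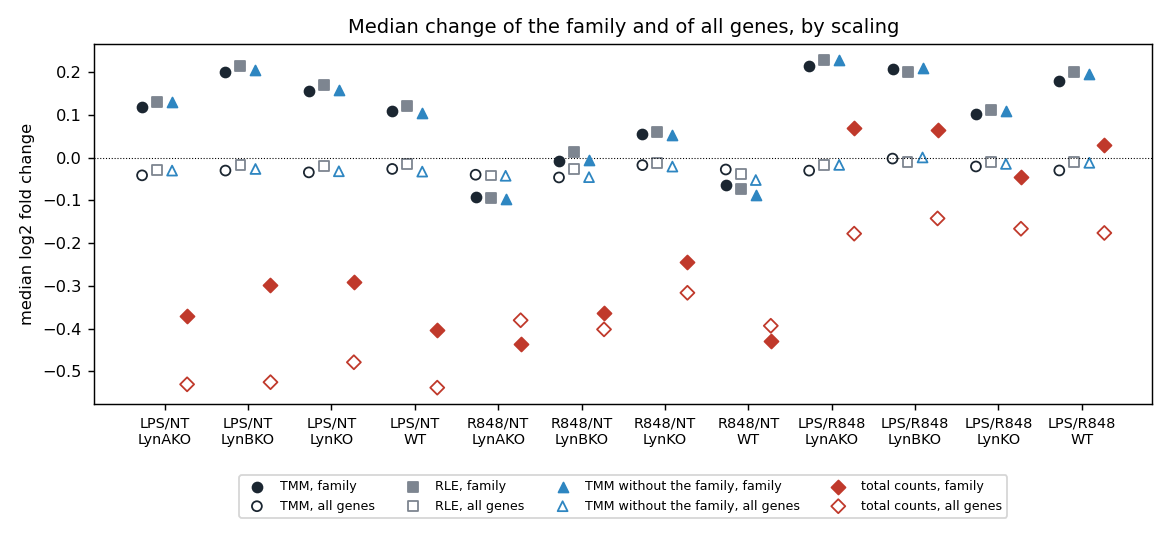
Median log2 fold change of the 86 ribosomal protein genes in the 12 ligand comparisons (x axis) under the scalings of the legend. LPS against NT lies at 0.11 to 0.20 with TMM and at -0.40 to -0.29 with total counts, and R848 against NT at -0.09 to 0.06 with TMM and at -0.44 to -0.24 with total counts.

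On the TMM scale, Rpl24 was the core gene with the largest change with either ligand in each genotype. With total counts, other members changed more, such as Rpl18 at -0.63 with R848 in WT. Rpl24 encodes a large-subunit protein that reaches across to the small subunit, and it lies at chr16:55966275-55971435 on the plus strand (GRCm38, GENCODE M21). In LynAKO it had 153, 145, 147 and 157 CPM with LPS, 102, 102, 107 and 142 CPM with R848, and 80.0, 78.2, 75.04 and 109 CPM with NT. In LynBKO it had 144, 139.5, 135 and 135 CPM with LPS, 117, 105, 110.0 and 111 CPM with R848, and 76.99, 85.6, 75.5 and 82.1 CPM with NT. LPS libraries lay above R848 libraries, and these above NT libraries, in LynBKO, whereas the R848 and NT libraries overlapped in LynAKO through its mouse 4. In LynKO it had 129, 114, 132 and 122 CPM with LPS, 98.3, 89.2, 102 and 129 CPM with R848, and 70.7, 72.6, 80.5 and 79.8 CPM with NT. In WT it had 137, 141, 146 and 148 CPM with LPS, 115, 107, 106 and 128 CPM with R848, and 90.0, 85.5, 79.2 and 84.5 CPM with NT. The 3 treatments did not overlap in WT, and in LynKO the R848 libraries reached into the LPS range through mouse 4.

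The log2 fold change of Rpl24 with LPS was 0.81 ± 0.121 in LynAKO (adjusted p = 1.66e-05), 0.79 ± 0.0597 in LynBKO (2.27e-09), 0.70 ± 0.1 in LynKO (1.55e-05) and 0.77 ± 0.0766 in WT (9.48e-08; edgeR, ± SE). With R848 it was 0.41 in LynAKO (adjusted p = 0.00769), 0.47 in LynBKO (2.68e-06), 0.45 in LynKO (0.00133) and 0.46 in WT (6.16e-05). It was higher with LPS in 12 of the 12 paired mice, and with R848 in 12 of 12. Against the mean of the core genes of the same library, it was higher with LPS by a median of 0.65 and with R848 by a median of 0.47 (log2), again in 12 of 12 mice each. When TMM factors were taken from the core genes alone, so that a call is a departure from the family, Rpl24 was higher in all 4 LPS and all 4 R848 comparisons, by 0.54 to 0.71 and by 0.38 to 0.52. Scaled to total counts it stayed called with LPS, at 0.33 in LynAKO, 0.29 in LynBKO, 0.26 in LynKO and 0.25 in WT, and was not called with R848 (adjusted p = 0.626, 0.1, 0.198 and 0.309). Directly between the ligands, Rpl24 was higher with LPS by 0.40 in LynAKO (adjusted p = 0.0283), 0.32 in LynBKO (0.000512) and 0.31 in WT (0.00701), and the difference of 0.26 in LynKO did not pass (0.101). The difference in LynAKO was not called without mouse 1, 2 or 3 (edgeR adjusted p = 0.173, 0.133 and 0.143) or with total counts (0.128). The R848 call of Rpl24 against NT in LynAKO was lost without mouse 3 (0.0529). Relative to the family Rpl24 was 0.12 to 0.20 higher with LPS than with R848, which passed in no genotype.

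**Figure D4:**
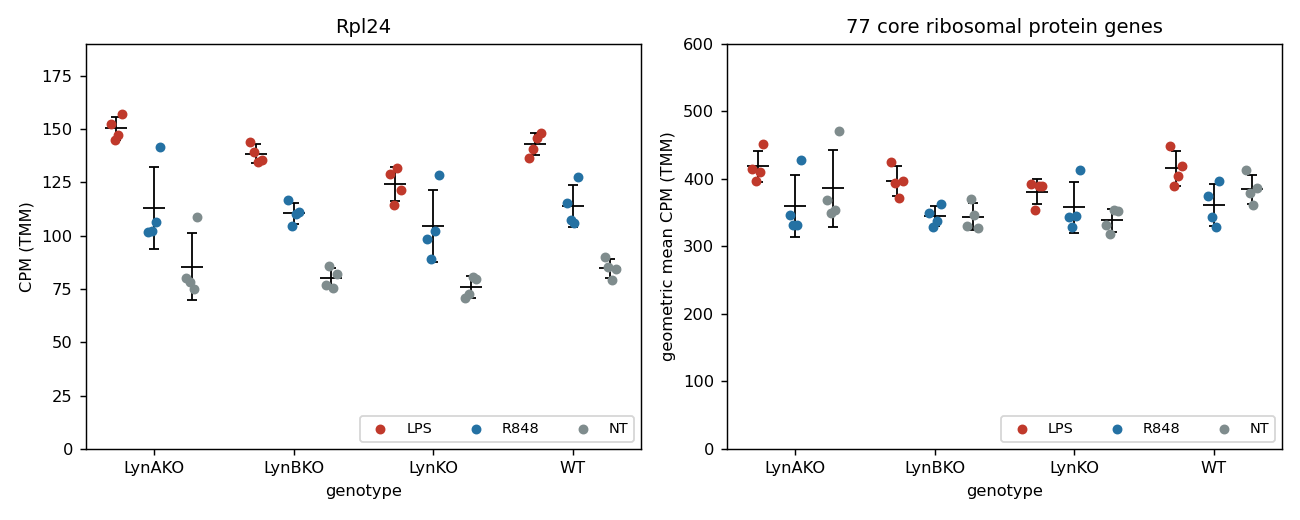
CPM of Rpl24 (left) and the geometric mean CPM of the 77 core genes (right) in each library on the TMM scale, by genotype and treatment, with the group mean and SD (n = 4). Rpl24 lies at 114 to 157 CPM with LPS and at 70.7 to 109 CPM with NT, while the family mean of the right panel keeps nearly the same height on this scale and falls with either ligand when scaled to total counts.

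The genes around Rpl24 were looked at for their position. The exons of Gm28037 overlap those of Rpl24 on the same strand in the annotation. Gm28037 had 0 counts in all groups but LynAKO with R848, where it averaged 0.0567 CPM. Reads of the overlap may be left out or split, so this does not show that Rpl24 kept all its reads. The level of Rpl24 may rest on part of its transcript, which was not tested. Zbtb11, a zinc-finger gene that starts 2448 bases downstream on the same strand, averaged 34.6 CPM with LPS, 49.7 CPM with R848 and 21.6 CPM with NT in WT, so its log2 fold changes were 0.70 and 1.23 and it was lower with LPS than with R848 by -0.54. Rpl24 had the opposite order of the ligands. Pcnp, 35810 bases away, was higher by 0.52 with LPS and 0.45 with R848, and Nfkbiz, an early target of Toll-like receptors 127376 bases away, by 4.56 and 5.50. Cep97, 31420 bases away, was lower by -3.11 and -2.82. Neighbours on both sides thus changed in both directions. The strand setting of the counting is not stated.

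Few other members left the family. On the family scale, besides Rpl24, edgeR called 1 further gene higher with LPS in LynBKO (Rps13), 1 in LynKO (Rpl19) and 1 in WT (Rpl27), and Rpl3 lower in LynBKO and LynKO, where 24.9%, 23.1% and 26.0% of all genes were higher and 42.6% and 37.1% lower on that scale. With R848 it called Rps13 higher in LynBKO and Rpl4 higher and Rpl18 lower in WT (29.7% and 30.4% of all genes higher, 21.8% lower in WT). Between the ligands it called Rpl27 in WT (6.18% of all genes higher). No gene other than Rpl24 was called against the family in more than 2 of the 4 genotypes in any ligand comparison.

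Rpl27, of the large subunit, separated the ligands in WT. It had 376, 326, 328 and 365 CPM with LPS, 273, 269, 215 and 235 CPM with R848, and 269, 287, 249 and 296 CPM with NT. All 4 LPS libraries lay above all others, and R848 and NT overlapped. The log2 fold change of Rpl27 was 0.35 ± 0.0907 for LPS against NT (adjusted p = 0.00254) and 0.47 ± 0.091 for LPS against R848 (0.000973, edgeR). In LynBKO it was 0.33 ± 0.0579 for LPS against R848 (adjusted p = 0.000309), and against NT it was 0.29 (0.000259). With total counts, Rpl27 was at -0.16 for LPS against NT in WT and at 0.33 for LPS against R848.

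Rpl4, whose product lines the tunnel for the nascent chain, rose with LPS in each genotype on the TMM scale and was at -0.30 to -0.16 on the total-count scale. In WT it had 802, 763, 802 and 802 CPM with LPS, 757, 702, 745 and 839 CPM with R848, and 732, 680.2, 678 and 661 CPM with NT. LPS lay above NT throughout, while R848 spanned both. The log2 fold change of Rpl4 with LPS was 0.27 in LynAKO (adjusted p = 0.00198), 0.26 in LynBKO (0.000221), 0.28 in LynKO (0.00161) and 0.22 in WT (0.0167, edgeR). With R848 it was 0.14 to 0.17, called in LynBKO (0.14, adjusted p = 0.0308). That R848 call was lost without replicate 2, 3 or 4 (edgeR adjusted p = 0.101, 0.088 and 0.115), with no filter (0.219) and against the family (0.0735). With LPS, Rpl4 was called against the family in no genotype (0.225 in LynAKO and 0.134 in LynKO).

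Rps13, of the small subunit, had 257, 230.5, 215 and 224 CPM with LPS, 205, 192, 203 and 221 CPM with R848, and 172, 192, 188 and 178 CPM with NT in LynBKO. LPS lay above NT, and R848 overlapped both. Its log2 fold change in LynBKO was 0.34 with LPS (adjusted p = 0.000219) and 0.17 with R848 (0.0366, edgeR), and -0.16 and -0.19 scaled to total counts. The R848 call was lost without replicate 1, 3 or 4 (adjusted p = 0.0848, 0.0524 and 0.202), without the NT library 4 alone (0.0628), with no filter (0.127) and with the block (0.0524). Rpl19 of the large subunit was higher with LPS in LynKO by 0.32 (adjusted p = 0.00146) and Rps9 of the small subunit in WT by 0.27 (0.029), at -0.13 and -0.25 scaled to total counts. The Rps9 call was lost without WT mouse 2, 3 or 4 (adjusted p = 0.0806, 0.0838 and 0.0523) and against the family (0.0991).

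Rpl3, which lies beside the catalytic centre of the large subunit, stayed near its NT level with LPS on the TMM scale and was below it on the total-count scale. In LynBKO it had 826, 789, 833 and 821 CPM with LPS, 721, 689, 756 and 724 CPM with R848, and 730.5, 829.7, 792.5 and 809.7 CPM with NT. Its R848 libraries lay mostly below the others, and LPS and NT overlapped. The log2 fold change of Rpl3 was 0.05 with LPS and -0.13 with R848 in LynBKO, and the R848 difference was at the threshold (adjusted p = 0.0486, edgeR). It was lost under 11 of 15 alternatives, among them limma (adjusted p = 0.0785), DESeq2's size factors (0.0947), no filter (0.103), without the NT library 4 (0.142) and without replicate 2, 3 or 4 (0.321, 0.0985 and 0.139). Against the family with LPS it was -0.15 in LynBKO (adjusted p = 0.0497) and -0.17 in LynKO (0.0493).

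Rpl18, of the large subunit, had 692, 520.5, 534 and 581 CPM with LPS, 481, 460.1, 405 and 478 CPM with R848, and 603, 540.1, 537 and 548 CPM with NT in WT. All R848 libraries lay below all NT libraries. The log2 fold change of Rpl18 with R848 in WT was -0.26 ± 0.0925 (adjusted p = 0.0227, edgeR), and the same comparison gave -0.20 in LynAKO, -0.08 in LynBKO and -0.05 in LynKO, none called. Rpl18 overlaps Sphk2 on the other strand, which averaged 105 CPM with LPS, 110 CPM with R848 and 123 CPM with NT in WT. The reads of the overlap may be split between them.

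Other members with the largest called differences between LPS and R848 were Rps28 in LynBKO (0.30, adjusted p = 0.0102) and WT (0.40, 0.0284), Rpl38 in LynBKO (0.29, 0.00881), and Rpl31 (0.38, 0.0118) and Rpl28 (0.37, 0.0105) in WT (edgeR log2 differences). None of these calls held with total counts (edgeR adjusted p = 0.0735 to 0.123) or against the family (0.118 to 0.314). The Rps28 call was also lost in WT without mouse 2, 3 or 4 (0.1, 0.0546 and 0.0631) and in LynBKO without replicate 3 (0.0525). That of Rpl31 was lost without WT mouse 4 (0.0628). Rps28, Rpl31 and Rpl28 each overlap a gene on the other strand in the annotation. Rpl29 and Rpl23 of the large subunit were called higher with LPS in LynAKO by 0.24 (adjusted p = 0.0431) and 0.23 (0.0472), at -0.24 and -0.26 scaled to total counts. Without LynAKO mouse 1, 2 or 3 both calls were lost (edgeR adjusted p = 0.113, 0.0937 and 0.146 for Rpl29, and 0.165, 0.125 and 0.105 for Rpl23). They were also lost with no filter (0.0824 and 0.104) and against the family (0.27 and 0.351).

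A set of 20 members with well-known roles was fixed for description. With LPS edgeR called 12 of the 20 higher in LynBKO, by 0.13 to 0.29, and 3 in LynKO (Rps6, Rpl5 and Rps27a), by 0.21 to 0.25, but none in LynAKO or WT. The shares of all genes higher there were 33.9% in LynBKO and 31.0% in LynKO, and 66 and 22 of the 86 members were. The 12 were the stalk genes Rplp0, Rplp1 and Rplp2, Rpsa, the S6 kinase substrate Rps6, the Mdm2-binding pair Rpl5 and Rpl11, the late-joining Rpl10, Rpl39, the ubiquitin fusion Rps27a, and the paralogs Rps27l and Rpl36al. Between LPS and R848 it called 12 of the 20 in LynBKO, by 0.17 to 0.25, where 14.2% of all genes and 59 of the 86 members were higher, and none in the other genotypes. The family's calls in LynBKO there fell to 14, 6 and 13 without replicates 1, 2 and 3. Rplp0 averaged 1227 ± 96.9 CPM with LPS, 1077 ± 75.2 CPM with R848 and 1138 ± 43.3 CPM with NT in WT (SD, n = 4), and Rpl13a 258 ± 4.70, 225 ± 27.6 and 248 ± 13.8 CPM. Rpl13a, released from the ribosome in interferon-treated human monocytes, had the smallest range over the 12 groups of all core genes. Rps6 had 433.5, 429.1, 447 and 473 CPM with LPS, 443, 397, 399 and 455 CPM with R848, and 420.0, 399.9, 387 and 407 CPM with NT in WT, and its LPS libraries lay above its NT libraries. Rpl22, Rpl36a, Rpl41, Rps3, Rps19, Rps27, Rpl3 and Rpl13a were not called for LPS against NT in any genotype.

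The copies and paralogs were mostly low in level. Rpl36al averaged 182 ± 8.57 CPM with LPS, 156 ± 19.6 CPM with R848 and 160.0 ± 11.3 CPM with NT in WT, close to its parent Rpl36a (183, 155 and 177 CPM), and Rps27l 66.1, 59.0 and 67.6 CPM. The other 7 averaged from 0.514 CPM (Rpl32l) to 4.46 CPM (Rps4l) with NT in WT. Rps4l, annotated as a transcribed processed pseudogene, had 8.91, 7.33, 6.94 and 4.42 CPM with LPS and 3.77, 5.19, 4.85 and 4.06 CPM with NT in WT, and these groups overlapped. It was called higher with LPS in WT by 0.64 (adjusted p = 0.0153) and in LynBKO by 0.61 (0.0165, edgeR), and was not called scaled to total counts (0.12 and 0.11). Leaving out WT mouse 1 or 3 ended the call in WT (adjusted p = 0.0989 and 0.052), and leaving out LynBKO replicate 1 or 2 ended it in LynBKO (0.075 and 0.158). Rps3a2, a processed pseudogene, was called higher with LPS in LynBKO by 0.45 (adjusted p = 0.0254) and in LynKO by 0.52 (0.0499). The LynKO call was lost without any 1 LynKO mouse (adjusted p = 0.084 to 0.115) and without the NT library 4 alone (0.087), and the LynBKO call without replicate 1 or 4 (0.112 and 0.103). Scaled to total counts Rps3a2 was at -0.0414 in LynBKO and 0.0783 in LynKO. Reads of such near-identical copies may come from the parent genes, so these values are uncertain.

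Genotype had small effects on the family. Without ligand, the median log2 difference from WT was 0.01 in LynAKO, -0.16 in LynBKO and -0.16 in LynKO, with 86 of 86 below 0 in LynBKO and 84 of 86 in LynKO. The medians of all genes were 0.00, 0.01 and 0.00. Scaled to total counts the family medians were 0.02, -0.13 and -0.09. Macrophage markers moved with genotype as well, with sums of 30700 to 35640 CPM in LynAKO, 32030 to 35250 CPM in LynBKO, 23650 to 26550 CPM in LynKO and 36550 to 44730 CPM in WT without ligand, and their part in the difference was not tested. edgeR called 3 lower in LynKO, Rpl37a, Rps29 and Rps19, where 4.48% of all genes were lower, 5.43% higher and 9.92% called either way, and none in LynBKO, where 20 had an unadjusted p under 0.05 and DESeq2 called 0 (0.0644% of all genes called). In LynAKO edgeR called 0, with 0 at an unadjusted p under 0.05 and 0 by DESeq2 (0.0286% of all genes called). With LPS, edgeR called Rps19 alone lower in LynKO (4.06% of all genes lower; the family median there was -0.10, and 0.01 scaled to total counts). With the mouse number as a block, 6 members were lower in LynKO with LPS, where 6.25% of all genes were. Without the block, edgeR called 0 in LynAKO and LynBKO with LPS (0.0215% and 0.0358% called, of which 0.0143% lower in LynAKO), each with 1 member at an unadjusted p under 0.05 and 0 by DESeq2. With R848 it called 0 in LynAKO, LynBKO and LynKO (0.00715%, 0.00% and 5.93% of all genes called), with 0, 1 and 1 at an unadjusted p under 0.05 and 0 by DESeq2 in each. Without the block, Rps19 in LynKO was the member called in more than 1 treatment.

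Rps19, a small-subunit protein mutated in human Diamond-Blackfan anaemia, had 285, 266, 282 and 292 CPM in LynKO and 405, 338, 327.5 and 366 CPM in WT without ligand. With LPS it had 312, 285, 308 and 309 CPM in LynKO and 415, 334, 338 and 395 CPM in WT. Every LynKO library lay below every WT library in both conditions. The log2 difference of Rps19 was -0.34 ± 0.107 without ligand (adjusted p = 0.0481) and -0.27 ± 0.0805 with LPS (0.0434, edgeR). Rpl37a had 251, 249, 268 and 285 CPM in LynKO and 413, 328, 308 and 331 CPM in WT, and differed by -0.38 ± 0.119 (adjusted p = 0.0494). Rps29 had 155, 145, 151 and 168 CPM in LynKO and 241, 199, 168 and 195 CPM in WT, and differed by -0.36 ± 0.115 (adjusted p = 0.0497). The groups did not overlap for Rpl37a and met for Rps29. WT mouse 1 was the highest of its group in all 3 genes. These 3 calls stood at the threshold: none remained without WT mouse 1, 2 or 4, without any 1 LynKO mouse, without LynAKO mouse 1 or without LynBKO mouse 1, 3 or 4, which share the fit. Without LynAKO mouse 4 there were 20 calls and without WT mouse 3 there were 5, all lower. They were not called with the mouse number entered as a block, against the family, with total counts, with TMM factors from the other genes alone, or without the LynBKO and LynKO NT libraries 4. With LPS, Rps19 was not called without LynAKO mouse 3, LynBKO mouse 2 or 4, any 1 LynKO mouse, or WT mouse 1 or 4.

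Short coding sequences moved with the genotype difference. Core genes of up to 400 coding bases (25 genes) had a median log2 difference of -0.18 in LynKO and -0.19 in LynBKO against WT without ligand, and the 52 longer ones -0.15 and -0.14. Among other tested genes, the 643 of up to 400 coding bases had medians of -0.11 in LynKO and -0.13 in LynBKO, and the 11246 longer ones 0.01 in each. Their part in the difference of the ribosomal protein genes was not tested.

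**Figure D5:**
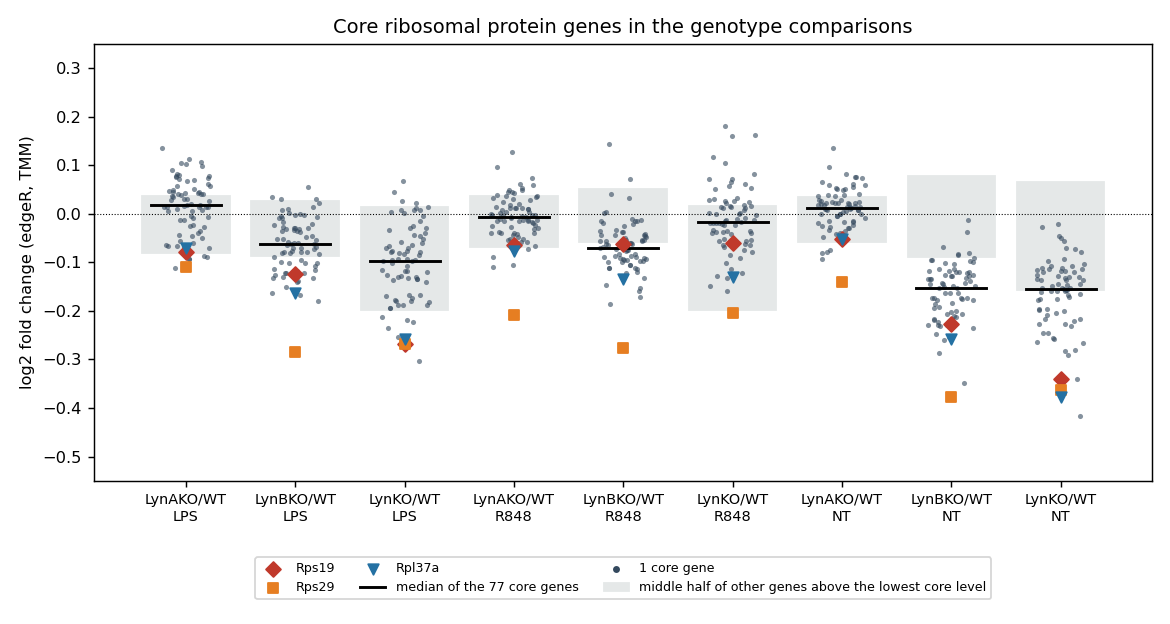
Log2 difference (edgeR, TMM scale) of each core ribosomal protein gene between a knockout and WT in the 3 treatments, 1 point per gene, with the quartiles of the 2117 other genes as abundant. The points lie below 0 in LynBKO and LynKO without ligand, at medians of -0.15 in each, and around 0 in LynAKO, and none is called when the scale is taken from the family itself.

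No member passed the test of a difference between genotypes in the response to a ligand. edgeR called 0 of 86 for the LPS response of LynAKO, LynBKO or LynKO minus that of WT (0.00%, 0.00% and 0.100% of all genes called), with 0, 1 and 0 at an unadjusted p under 0.05. It also called 0 for the R848 response (0.00%, 0.00% and 0.193% of all genes called), with 0 at an unadjusted p under 0.05 in each, and DESeq2 called 0 in all 6 (3 members had no DESeq2 adjusted p for R848 in LynKO). The median difference was largest for R848 in LynKO, at 0.17 (0.20 scaled to total counts), with 82 of 86 genes above 0. The higher count of LPS calls in LynBKO is therefore not shown to be a stronger response. The core genes of LynBKO responded to LPS by a median of 0.10 more than those of WT.

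Members varied together between libraries of one group. Over deviations of log2 CPM from group means in the 48 libraries, the median correlation between pairs of core genes was 0.80, with quartiles of 0.71 and 0.86, against 0.06 with quartiles of -0.22 and 0.32 between the 2117 other genes as abundant. The libraries share mouse, RNA preparation and scaling factor, so the values describe these libraries. Among the members less tied to the mean of the others were Rpl13a (0.62), Rpl7 (0.70) and Rpl4 (0.71).

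Other genes tied to the ribosome were described by list. The lists were assembly factors, regulators of TOP mRNAs and of growth, translation factors and other TOP mRNAs, and mitochondrial ribosomal proteins. Of 14 tested assembly factors, edgeR called 11, 11, 12 and 11 higher with LPS (LynAKO, LynBKO, LynKO, WT) and 11 higher with R848 in each genotype, where 30.4%, 33.9%, 31.0% and 31.5% of all genes were higher with LPS and 29.0%, 31.3%, 28.4% and 30.0% with R848. The medians of the list were 0.61 to 0.75, which were also above 0 scaled to total counts (0.11 to 0.42). In WT, Rrs1 was higher by 2.71 with LPS and 2.27 with R848, Tsr1 by 1.73 and 1.71, and Eif6, which keeps the subunits apart, by 1.57 and 1.19. Bccip was lower with LPS by -0.27. Of 78 mitochondrial ribosomal protein genes in WT, 12 were higher and 26 lower with LPS, beside 31.5% and 30.0% of all genes, and 9 and 30 with R848, beside 30.0% and 26.7%. Their medians were -0.12 and -0.21, and -0.64 and -0.57 scaled to total counts. Mrpl52 and Mrpl39 were the most raised with LPS, by 1.86 and 1.18, and Mrps35 and Mrpl41 the most lowered, by -1.26 and -1.19.

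Of 27 translation factors and other TOP mRNAs in WT, 8 were higher and 1 lower with LPS, and 6 higher and 2 lower with R848, so that the share higher was near the 31.5% of all genes with LPS and under their 30.0% with R848. The most raised with LPS were Hnrnpa1 (0.97), the intermediate filament gene Vim (0.86) and Btf3 (0.55), and the gene lowered was Eif4b (-0.35). The median of this list was 0.14 with LPS and 0.09 with R848 in WT, and -0.38 and -0.27 scaled to total counts, close to that of the ribosomal proteins with LPS. Of 23 regulators in WT, 13 were higher and 5 lower with LPS (31.5% and 30.0% of all genes), and 10 and 6 with R848 (30.0% and 26.7%). The median of the regulators was 0.32 with LPS and 0.15 with R848, and -0.20 and -0.22 scaled to total counts. Myc, a driver of ribosome synthesis, averaged 18.8 CPM with LPS, 27.6 CPM with R848 and 3.88 CPM with NT in WT. Ddit4, an inhibitor of mTORC1, was higher by 2.93 with LPS and 1.65 with R848, and the mTORC1 inhibitors Sesn1 and Sesn2 were lower with LPS by -3.77 and -2.77. Larp1, named here for its role at the TOP tract and chosen after its values were seen, was higher by 2.20 with LPS and 1.27 with R848. Of 6 ribosome-related genes outside the naming scheme, Rpl7l1 was higher with both ligands, by 0.37 and 0.47 in WT, and Fau, the fusion that yields a small-subunit protein, was at 0.14 with LPS, not called.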

How the data were processed

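RNA of 48 macrophage libraries was sequenced as polyA RNA. Per the submitters' processing notes, the authors used Trimmomatic 0.36, STAR 2.5.2b, featureCounts of Subread 1.5.2, DESeq2 and the build GRCm38; the role of each, the strand setting and the annotation release are not stated. The deposited values are raw counts per gene, as whole numbers, and variance-stabilised values on a log2 scale, used here for the member names and for 1 alternative. Here 49315 count rows were read, of which 48970 matched GENCODE M21 by identifier.

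Groups came from the labels, with 4 mice each. Genes were filtered with filterByExpr (minimum count 10, total 15) and scaled by TMM, and edgeR 4.0.16 (R 4.3.3) quasi-likelihood tests were fitted to all 13986 genes kept, per genotype for ligands (12 libraries), per treatment for genotypes (16) and over all 48 for differences of responses, 27 comparisons in all, with Benjamini-Hochberg adjustment within each at 0.05. The model was checked on simulated counts. The series design gives 4 mice per genotype, and the replicate numbers paired the libraries of WT, LynAKO and LynKO: same-number deviations from the group means correlated at 0.138 to 0.571 in 36 pairs. In LynBKO the NT libraries correlated at -0.325 to 0.297 with those of the same number, and the labelled sexes of NT 2 and NT 3 go against the numbers. Between genotypes the numbers name different mice, but each LynKO and WT pair correlated at over 0.1 (0.113 to 0.427), so blocked values are given there. Alternatives were other scalings, no filter, sex or mouse as a term, DESeq2 1.42.0, limma 3.58.1 on the variance-stabilised values, and libraries left out. TMM factors from the core genes, and LynBKO NT 2 and NT 3 exchanged in the block, and shares without the libraries that stand apart, were added after seeing the data. Libraries held 14974764 to 23321447 counts.

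Members, gene lists and roles were chosen with earlier results of these data known. Genes named are a set of 20 members, up to 4 called members each way per comparison by size of change, the extremes of level per coding length (coding in place of exon length), up to 3 called genes each way of the other lists, and Lyn and Myc. Members called against the family, and the neighbours of Rpl24, were named after their values were seen. Riok2 of the assembly list and Rpl35rt were not matched and are not analysed here.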

Additional observations from a re-analysis of the deposited data

Results flagged for a closer look

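In groups of 4 libraries, a library was marked where its gap to the nearest other library, divided by the whole range of the group, was above Dixon's critical value at the 0.05 level. This was looked at for the share of counts and for the 11 genes printed by library, 144 groups in all, and 17 were marked; chance marks about 1 in 20. The cause of the marks was not tested.

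LynAKO mouse 4 accounted for 9 of the marks, each time as the highest library. With NT it had 4.88% of counts in the ribosomal protein genes (gap over range 0.857), 109 CPM of Rpl24 (0.854), 1000 CPM of Rpl3 (0.953), 447 CPM of Rps19 (0.916) and 514 CPM of Rps6 (0.859). With R848 it had 142 CPM of Rpl24 (0.878), 346 CPM of Rpl27 (0.91), 369 CPM of Rps19 (0.886) and 476 CPM of Rps6 (0.887).

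LynKO mouse 4 had the highest share with R848, at 3.61% (0.862). The LynKO NT library 3 was highest for Rps6 at 396 CPM (0.876), and the LynKO LPS library 2 lowest for Rps19 at 285 CPM (0.844). Rpl4 was marked in 3 groups: the LynBKO LPS library 1 was highest at 845 CPM (0.964), the LynBKO R848 library 4 highest at 743 CPM (0.929), and the WT LPS library 2 lowest at 763 CPM (0.99). The WT NT library 1 was highest for Rpl18 at 603 CPM (0.8291), and the WT LPS library 1 highest for Rpl37a at 432 CPM (0.8336).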

How the results depend on the processing

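The family median kept its sign under DESeq2's size factors, TMM factors from the other genes, no filter, sex, DESeq2, limma, the replicate block and each mouse left out wherever it lay beyond 0.1. Total counts changed it: for LPS against NT to -0.37, -0.30, -0.29 and -0.40 (LynAKO, LynBKO, LynKO, WT), for R848 to -0.44, -0.36, -0.24 and -0.43, for LPS against R848 to 0.0692, 0.0649, -0.0443 and 0.0299, and for LynKO against WT with LPS to 0.00798. The calls became 79 (LynAKO), 78 (LynKO) and 79 (WT) with LPS, 80, 79, 60 and 79 with R848, and 0 (LynAKO), 2 (LynBKO) and 1 (WT) between ligands, with 0 for LynKO against WT without ligand and with LPS. Single genes turned sign on that scale: with LPS Rpl19 (-0.13) and Rpl4 (-0.16) in LynKO, Rpl23 (-0.26), Rpl29 (-0.24) and Rpl4 (-0.22) in LynAKO, Rpl27 (-0.16) and Rps9 (-0.25) in WT, and Rps13 (-0.16) and Rps3a2 (-0.0414) in LynBKO, and with R848 Rpl4 (-0.22) and Rps13 (-0.19) in LynBKO. The cause was not tested.

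Call counts moved more than medians. The shares of all genes called are not given for DESeq2, limma, no filter, sex or DESeq2's size factors. Nor are they given for TMM factors from the other genes, the block with NT 2 and NT 3 exchanged or libraries left out. No background stands beside those counts, so they are not read against all genes. The replicate block gave 38 (LynAKO), 51 (LynKO) and 22 (WT) with LPS, 24, 2, 11 and 15 (LynAKO, LynBKO, LynKO, WT) with R848, 68, 6 and 34 (LynAKO, LynKO, WT) between ligands, and 0 without ligand and 6 with LPS for LynKO against WT; between genotypes the numbers are those of different mice, and 27 of 36 pairs correlated best within their own number. In LynBKO, whose numbers do not pair the NT libraries, the block with NT 2 and NT 3 exchanged, an alternative chosen after seeing the data, gave 66 with LPS, 4 with R848 and 66 between ligands. DESeq2 gave 7 (LynAKO) and 21 (WT) with LPS, 2, 4 and 9 (LynAKO, LynKO, WT) with R848, 7 (LynAKO) and 26 (WT) between ligands, and 7 without ligand and 5 with LPS for LynKO against WT. limma gave 8 with R848 in WT, 3 (LynAKO) and 19 (WT) between ligands, and 5 for LynKO against WT with LPS. Without a filter there were 2, 43, 8 and 4 with LPS, 7 (LynAKO), 1 (LynBKO) and 10 (WT) with R848, 5 between ligands in LynAKO, 7 for LynBKO against WT without ligand, and 19, 2 and 1 for LynKO against WT without ligand, with LPS and with R848. Sex as a term gave 36 with LPS and 5 with R848 in LynKO, 7 with R848 in WT, and 2 (LynAKO) and 1 (LynKO) between ligands. DESeq2's size factors in edgeR gave 2 with R848 in LynKO. TMM factors from the other genes gave 8 with R848 in WT and 0 for LynKO against WT without ligand. TMM factors from the core genes, which count departures from the family, gave 1, 3, 3 and 2 with LPS, 2 with R848 in LynBKO, 0, 0 and 1 between ligands in LynAKO, LynBKO and WT, and 0 for LynKO against WT without ligand and with LPS. Without the LynBKO and LynKO NT libraries 4 there were 40 with LPS in LynBKO, 2 with R848 in each of these genotypes, and 0 for LynKO against WT without ligand.

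With 1 mouse left out, calls ran from 2 to 51, 27 to 59, 4 to 39 and 3 to 5 with LPS, from 0 to 20, 1 to 3, 1 to 1 and 1 to 6 with R848, and from 0 to 71, 6 to 54, 0 to 21 and 4 to 11 between ligands (LynAKO, LynBKO, LynKO, WT), and from 0 to 20 without ligand and 0 to 1 with LPS for LynKO against WT. The shares of all genes called in those refits are not given. Without the 50 most abundant other genes the shares were 3.85, 3.68, 3.70 and 3.75% with LPS, 3.71, 3.53, 3.83 and 3.68% with R848, and 5.08, 4.56, 4.57 and 5.03% with NT. Over 37 results of single genes and 561 alternatives, 400 kept direction and side of the threshold, 150 lost the call and 11 turned sign. Rpl24 was called for LPS against NT in each genotype under every alternative run. Depth limits the copies with few counts most.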
